A study of Mus musculus with 3 samples.

Results

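Resident-like dermal macrophages of the mouse skin wound were selected from droplet single-cell RNA-seq as the barcodes that scored highest for Lyve1, Cd163, Cd209f, Fcna, Gas6 and Cbr2. The score was the mean of ln(1 + UMIs per 10000) over these 6 genes, where a UMI (unique molecular identifier) stands for 1 captured mRNA molecule. The top 4% of the 2702 barcodes that passed the filters were taken, which gave 108 resident-like barcodes. The remaining barcodes were split into 1068 others with at least 1 C1qa UMI, which form the comparison group, and 1526 without one. The libraries came from wounds of male C57BL6/J mice, titled as wild type, at day 3, day 6 and day 10 after injury, and aimed at monocytes and macrophages. No allele, agent or treatment other than the wound is named for any group. Each day is 1 library made from 2 pooled mice whose cells cannot be told apart, so a difference between days has no replicate check and no test, and unwounded skin was not analysed here. Beyond enzymatic digestion and a minimum viability, the sources used here do not describe the isolation. In sums over barcodes, fewer cells of a kind and less RNA per cell cannot be told apart.

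Skin macrophages are of mixed descent. Some settle in the dermis, often along vessels, and carry scavenger and lectin receptors, while others derive from Ly6c2-expressing, Ccr2-expressing blood monocytes that enter after injury. LYVE1 binds hyaluronan and CD163 takes up haemoglobin bound to haptoglobin. Ficolin A, the Fcna product, recognises microbial sugars and starts the lectin pathway of complement. GAS6 bridges exposed phosphatidylserine on dying cells to the receptors AXL and MERTK, Cd209f encodes a C-type lectin and Cbr2 a carbonyl reductase. LYVE1 is also made by lymphatic endothelium, so the identity of the barcodes was checked against vessel markers.

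Resident-like barcodes were read to a like depth at day 3 and day 6, were shallower at day 10, and had a higher mitochondrial share on each day than the other C1qa-positive barcodes. The libraries held 11199361, 9273960 and 13972817 UMIs in 1472, 1196 and 2209 barcodes at day 3, day 6 and day 10. Of these, 879, 551 and 1272 barcodes had at least 200 detected genes, at least 2000 UMIs and under 10% mitochondrial UMIs. Resident-like barcodes had median UMI counts of 10034, 10975 and 6316, against 9826, 10783.5 and 8161.5 in the other C1qa-positive barcodes. Their median mitochondrial share was 5.97, 5.17 and 5.01%, against 4.07, 4.04 and 3.25% in the others. The day 6 and day 10 libraries shared 2 barcode sequences. Scrublet called 4, 1 and 4 barcodes doublets, 0 of them resident-like. So low a yield leaves doublets possible in every class.

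The 6 score genes chose the barcodes, so their levels describe the selection and are given without a test. Cbr2 had UMIs in 101 and Gas6 in 100 of the 108 barcodes. Cd163 had UMIs in 66, Fcna in 58, Lyve1 in 41 and Cd209f in 14. Gas6 and Cbr2 were thus the widest of the 6, and Lyve1 and Cd163, by which such cells are usually named, were found in fewer barcodes. Lyve1 (ENSMUSG00000030787, chr7:110850607-110863239, minus strand) had 663, 437 and 242 CPM in resident-like barcodes of day 3, day 6 and day 10, against 0, 1.28 and 1.19 CPM in the other C1qa-positive barcodes. CPM are UMIs scaled to the total of the UMIs summed over the barcodes of a class and library. Cd163 (ENSMUSG00000008845, chr6:124304656-124330527, plus strand) had 637, 1140.3 and 463 CPM in resident-like barcodes of day 3, day 6 and day 10, against 6.81, 5.11 and 9.54 CPM in the other C1qa-positive barcodes. Outside the set, a Lyve1 UMI was found in 0.75% of the other C1qa-positive and 0.39% of the C1qa-negative barcodes, against 38.0% inside it. A Cd163 UMI was found in 61.1% of resident-like, 4.03% of other C1qa-positive and 5.64% of C1qa-negative barcodes, the last at 12.7% on day 6. Among the C1qa-negative barcodes Gas6 was found in 1.38% and Cbr2 in 4.98%, so Cd163 was the wider there. Among the C1qa-positive barcodes Gas6 and Cbr2 were less restricted. Gas6 had 743, 780.3 and 571 CPM in resident-like barcodes of day 3, day 6 and day 10, against 4.54, 40.6 and 39.3 CPM in the other C1qa-positive barcodes. Cbr2 had 1724, 841 and 626 CPM in resident-like barcodes of day 3, day 6 and day 10, against 50.5, 53.7 and 27.8 CPM in the other C1qa-positive barcodes, and it was found in 16.2% of these others. Fcna had 292, 302 and 217 CPM in resident-like barcodes against 1.14, 3.83 and 6.47 CPM in the others on the same days, and Cd209f had 186, 44.1 and 148 CPM in resident-like barcodes against 0, 0.319 and 0.511 CPM in the others.

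The boundary of the set was gradual, as the plot of ranked scores shows. The last barcode inside had a score of 0.535 and the first outside 0.532, and 24.2% of all 2702 barcodes had a score above 0. The score of the 108 barcodes had a median of 0.842 and a maximum of 2.71. Folr2, a folate receptor of resident macrophages that is no part of the score, was at 387 CPM in the 20 barcodes just inside the boundary and at 269.6 CPM in the 20 just outside. Mrc1, the mannose receptor, was at 1542 and 724 CPM on the same sides, and Ccl8 at 612 and 397 CPM.

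**Figure D1:**
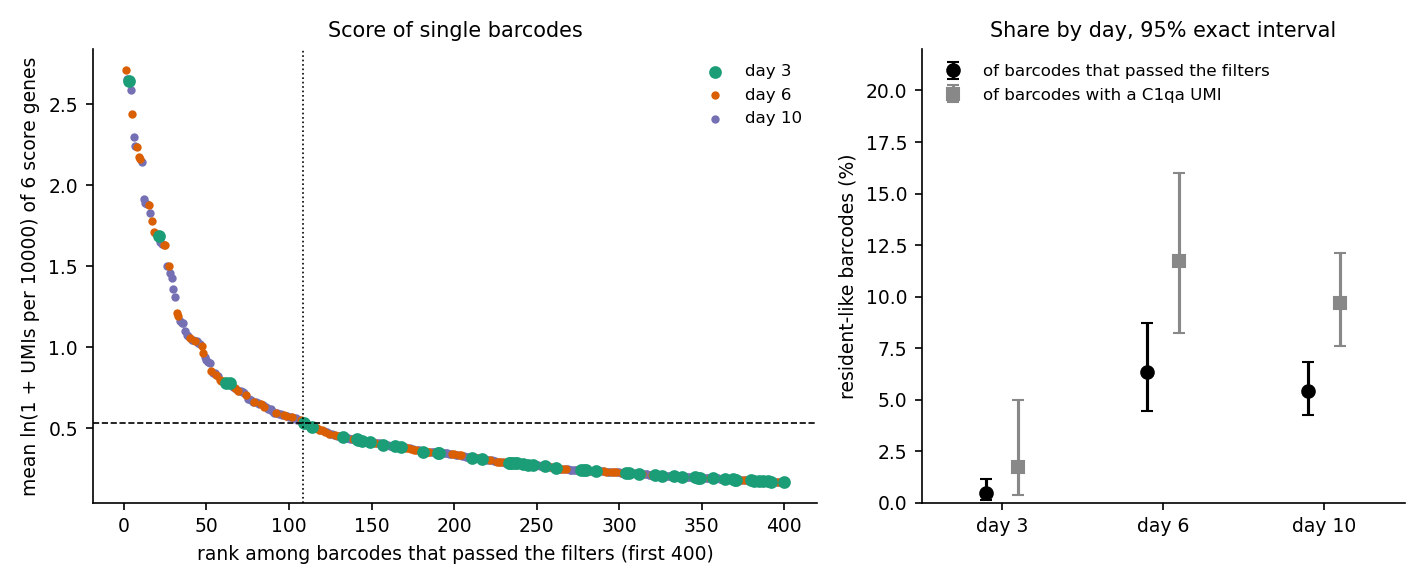
Left, score (mean ln(1 + UMIs per 10000) of the 6 score genes) of the highest-ranked barcodes, each point 1 barcode coloured by day, with the boundary at 0.535 dashed and rank 108 dotted; the curve falls without a step there. Right, resident-like barcodes by day as a percentage of all filtered barcodes (circles) and of barcodes with a C1qa UMI (squares), with exact 95% intervals, lowest at day 3 on both scales (0.455% of filtered and 1.73% of C1qa-positive barcodes).

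The barcodes carried macrophage genes, and the markers of other cell types were at 0 or low. All 16 monocyte and macrophage markers, among them Csf1r, Adgre1 and C1qa, were detected in the resident-like sums on each day and together made up 28042, 27659.6 and 30169.7 CPM. C1qa was found in 106 of the 108 barcodes. The lymphatic markers Prox1, Flt4, Mmrn1, Ccl21a and Reln had 0 UMIs in the resident-like barcodes of every day, and the 9 blood endothelial markers summed to 0, 2.32 and 10.2 CPM. Of the lymphatic list, Pdpn and, at day 10, Thy1 alone had UMIs, and the list summed to 0, 69.7 and 118 CPM, against 161, 333 and 490.1 CPM in the other C1qa-positive barcodes. Fibroblast markers (9 genes) summed to 53.1, 34.8 and 69.1 CPM, against 6.24, 19.8 and 40.2 CPM in the other C1qa-positive barcodes. Pdgfra and Pdgfrb were at 0 in the resident-like barcodes, and the part of fibroblast RNA in the results was not tested. Dendritic cell markers (11 genes) summed to 159, 39.5 and 46.7 CPM, against 60.2, 82.1 and 53.8 CPM in the others. Of the B cell genes, Cd79b and Ighm alone were detected, at 186, 209 and 146 CPM in resident-like barcodes against 81.7, 31.0 and 25.5 CPM in the others, summed over the list, with Cd79a, Ms4a1, Pax5 and Ebf1 at 0. Keratinocyte (8 genes), mast cell (7) and T and NK cell (10) lists each summed to under 10 CPM in the resident-like barcodes of every day. Neutrophil markers (9 genes) summed to 133, 65.0 and 65.0 CPM with Ly6g and Cxcr2 at 0, against 106, 196 and 131 CPM in the others.

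The DNA just upstream of score genes and of genes that were high with them was read from RefSeq promoters on GRCm38.p6, the assembly behind mm10. Of 15 genes looked up, 12 had an entry. The 250 bases before the RefSeq start were searched on both strands for the PU.1-type core GAGGAA (or TTCCTC), the MAF half-site TGCTGA (or TCAGCA) and the AP-1 site TGAGTCA (or TGACTCA). No match of 1 motif overlapped a match of another in the windows shown. PU.1 and MAF are lineage regulators of macrophages, and AP-1 is formed by FOS and JUN proteins. Windows of all 32851 promoters in the table held these letters in 23.3, 16.1 and 4.46% of cases. The sequences shown are those of 3 score genes and of Ccl8 and Cd209g, 2 of the genes with the largest differences described further on, with matches in capitals. They are the windows of Cd163 (chr6:124304401-124304650, plus strand), Fcna (chr2:25627975-25628224, minus strand), Ccl8 (chr11:82114935-82115184, plus strand), Cd209f (chr8:4105765-4106014, minus strand) and Cd209g (chr8:4134486-4134735, plus strand). RefSeq starts can differ from the GENCODE gene coordinates used elsewhere in the text, by which the Cd209g window lies inside the gene and those of Cd209f and Fcna overlap its start.
Cd163: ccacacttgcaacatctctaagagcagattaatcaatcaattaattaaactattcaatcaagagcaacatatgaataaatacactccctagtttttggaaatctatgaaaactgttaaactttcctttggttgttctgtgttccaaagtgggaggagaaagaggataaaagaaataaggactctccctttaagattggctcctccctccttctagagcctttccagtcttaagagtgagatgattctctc
Fcna: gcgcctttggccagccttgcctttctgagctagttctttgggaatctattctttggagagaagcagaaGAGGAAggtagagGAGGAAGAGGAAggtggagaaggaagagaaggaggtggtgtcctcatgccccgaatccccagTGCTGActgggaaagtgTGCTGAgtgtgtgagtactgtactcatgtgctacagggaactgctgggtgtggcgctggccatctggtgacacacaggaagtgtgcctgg
Ccl8: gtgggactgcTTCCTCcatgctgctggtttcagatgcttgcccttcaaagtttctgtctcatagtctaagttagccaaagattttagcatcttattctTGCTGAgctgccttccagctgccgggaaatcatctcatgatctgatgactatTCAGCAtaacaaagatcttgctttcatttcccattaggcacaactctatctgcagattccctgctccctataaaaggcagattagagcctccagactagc
Cd209f: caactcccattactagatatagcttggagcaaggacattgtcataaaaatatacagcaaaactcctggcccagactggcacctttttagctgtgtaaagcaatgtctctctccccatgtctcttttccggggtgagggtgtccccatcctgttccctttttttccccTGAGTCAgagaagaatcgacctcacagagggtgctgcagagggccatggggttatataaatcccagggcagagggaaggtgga
Cd209g: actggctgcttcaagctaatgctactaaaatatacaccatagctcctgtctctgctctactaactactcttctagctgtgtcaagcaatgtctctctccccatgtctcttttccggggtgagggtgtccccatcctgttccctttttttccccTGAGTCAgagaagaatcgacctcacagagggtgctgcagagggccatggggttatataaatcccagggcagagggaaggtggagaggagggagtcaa
Fcna held 3 PU.1-type and 2 MAF half-site matches, Ccl8 held 1 and 2, and Cd163 held none of the 3 motifs. Cd209f and Cd209g each held 1 AP-1 match, within a run of 154 bases that was identical between the 2 genes. Cd209f, Cd209g, Cd209d and Cd209b are related lectin genes whose transcripts were not compared here, so how reads were divided among them is uncertain. A match describes the letters alone.

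Resident-like barcodes were few in the day 3 library and made up a larger share of the later ones. They made up 4 of 879 filtered barcodes at day 3, or 0.455% (exact Clopper-Pearson 95% interval 0.124 to 1.16%). At day 6 they were 35 of 551, or 6.35% (4.46 to 8.72%), and at day 10 they were 69 of 1272, or 5.42% (4.24 to 6.82%). Among barcodes with a C1qa UMI the shares were 1.73% (0.359 to 4.98%), 11.7% (8.26 to 16.0%) and 9.70% (7.63 to 12.1%). With the top 4%, the day 6 and day 10 intervals overlapped on both scales, and neither overlapped that of day 3. On the C1qa scale this separation from day 3 was lost under some of the alternatives given further on. Intervals and floors here cover counting error only and say nothing of the spread between mice. Shares also depend on how the cells were isolated and on where the boundary was set. With the top 8% in place of the top 4%, the shares of filtered barcodes were 2.05, 12.9 and 9.98%.

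The 4 barcodes of day 3 were not alike. The first had UMIs of all 6 score genes (13 of Lyve1, 8 of Cd163), 39 C1qa UMIs and 4 Timd4 UMIs. The second had 5 score genes, with 12 Lyve1 and 106 C1qa UMIs. Both had 0 UMIs of the monocyte genes Ly6c2 and Chil3. The third had 11 UMIs each of Cd163 and Cbr2 but 0 of C1qa and C1qb, with 14 of Ccr2, 91 of Il1b and 20 of Chil3. The fourth had 1 C1qa UMI, 21 of Chil3, 3 of Ly6c2 and 8 of Ccl8. Day 3 sums of the set therefore mix 2 barcodes that carry the macrophage genes with 2 that carry monocyte genes.

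Genes outside the score that are known from resident macrophages were higher in the resident-like barcodes than in the other C1qa-positive barcodes. Summed counts of the 2 classes in each of the 3 libraries were compared with edgeR's quasi-likelihood test, with the library as a block and Benjamini-Hochberg adjustment over all genes. The days serve as replicates there, so that the p-values measure how alike the difference was in 3 libraries. The gene lists were chosen with earlier results of these data known, so counts over them are a description. The genes tested were not in the score, but they were read in the same barcodes. Cd209g and Cd209d may still not be independent of the choice, since how reads were divided between them and the score gene Cd209f is uncertain. Of 7730 genes, 425 were higher in the resident-like barcodes (5.5%) and 651 were lower (8.42%), at an adjusted p under 0.05 (edgeR). Fewer passed with 2 libraries, namely 355 higher and 540 lower without day 3, 116 and 253 without day 6, and 116 and 335 without day 10. Without the library block, 108 were higher and 219 lower, and DESeq2 called 175 and 344. The median log2 fold change of all genes was -0.03 with TMM scaling and 0.12 without it, so a change of that size depends on the scaling. Setting genes with 0 UMIs in a class at their bounds left each list median below as given.

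Of the 24 tested genes of the resident list, 18 were higher, 2 were lower and 4 did not pass, with a median log2 fold change of 2.08, against -0.03 over all genes. The count of higher genes was 18 without the day 3 library as well, 18 without day 6 and 16 of 23 without day 10. Ccl8 (ENSMUSG00000009185, chr11:82115185-82116799, plus strand), a monocyte-attracting chemokine, had 318, 2295 and 2393 CPM in resident-like barcodes of day 3, day 6 and day 10, against 7.38, 61.7 and 18.4 CPM in the other C1qa-positive barcodes. Each resident-like sum was above all 3 others (log2 fold change 5.75 ± 0.34 (SE), adjusted p = 4.20e-61, edgeR). The day 3 sum was 12 UMIs, with 8 in the fourth day 3 barcode, which carries monocyte genes, and 3 and 1 in the first and second. Within the set Ccl8 was uneven, with UMIs in 65 of 108 barcodes and a highest value of 278 UMIs per 10000 at day 10, where the median was 4.43. Folr2 (chr7:101839988-101857194, minus strand) had 743, 769 and 553 CPM in resident-like barcodes of day 3, day 6 and day 10, against 65.3, 79.9 and 63.3 CPM in the other C1qa-positive barcodes, with no overlap between the classes (log2 fold change 3.00 ± 0.25 (SE), adjusted p = 1.12e-29, edgeR). Mrc1 had 1989.8, 2123 and 1786 CPM in resident-like barcodes against 349, 382 and 346 CPM in the others and was found in 106 of the 108 barcodes, against 757 of the 1068 others (log2 fold change 2.15 ± 0.26 (SE), adjusted p = 7.04e-15, edgeR). Timd4, a phosphatidylserine receptor of long-lived macrophages, was sparse, with 24 UMIs in 10 barcodes, against 4 UMIs in 2 of the 1068 others. It also had 47 UMIs in 9 of the 1526 C1qa-negative barcodes. Its sums were 133, 30.2 and 12.2 CPM in resident-like barcodes against 0.568, 0 and 0.511 CPM in the others (log2 fold change 5.94 ± 0.80 (SE), adjusted p = 4.94e-12, edgeR). Cd209g had 47 UMIs in 10 resident-like barcodes and 0 in the others, with sums of 265, 11.6 and 65.0 CPM, which makes it at least 176-fold higher with the others set at the floor of 3 UMIs over the class. Pla2g2d, a secreted phospholipase, had 22 UMIs in resident-like barcodes against 0 in the others and was at least 82.2-fold higher on the same floor. Vsig4 and Cd209b, too sparse for the test, had 10 UMIs in 5 barcodes and 21 UMIs in 2 barcodes (95.2% in 1 of them), against 0 in the others. Cd209b was not limited to the set, with 60 UMIs in 22 of the 1526 C1qa-negative barcodes (1.44%, against 1.85% of the resident-like barcodes).

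Of the other members, Cd209d, another C-type lectin, had 159, 41.8 and 97.5 CPM in resident-like barcodes against 1.14, 4.47 and 4.77 CPM in the others (log2 fold change 4.01 ± 0.38 (SE), adjusted p = 2.92e-23, edgeR). Its UMIs lay in 11 of the 108 resident-like barcodes, against 15 of the 1068 others, and also in 153 of the 1526 C1qa-negative barcodes. Stab1, a scavenger receptor, had 955, 1298 and 776 CPM in resident-like barcodes against 121, 250.2 and 198 CPM in the others, and Selenop, a selenium carrier, had 3157, 4148 and 2269 CPM in resident-like barcodes against 648, 781 and 434 CPM in the others. Fold changes of 2 to 3 on the log2 scale were seen for Ednrb (2.62 ± 0.23), Clec10a (2.50 ± 0.23), Hpgd (2.48 ± 0.28) and Ltc4s (2.44 ± 0.23), which encode an endothelin receptor, a galactose lectin and enzymes of prostaglandin and leukotriene metabolism. F13a1, the coagulation factor XIII subunit of tissue macrophages, had 2573, 1860.2 and 1686 CPM in resident-like barcodes against 509.7, 531 and 776 CPM in the others. Pf4 had 2998, 4849 and 7997 CPM in resident-like barcodes against 1204, 2677 and 4312 CPM in the others, a smaller difference that did not pass with any 1 library left out (log2 fold change 0.71 ± 0.25 (SE), adjusted p = 0.041, edgeR). The 2 lower members were Klf4 (-1.61 ± 0.27) and Il10 (-1.35 ± 0.39). Klf4 did not pass without the day 10 library. Il10 rested on 17 UMIs in 7 barcodes, and its log2 value was 0.08 without the day 6 library. Cd36, Ninj1 and Cd209a were among those that did not pass, and Cd209a was 3.56 on the log2 scale and called higher when the others were limited to barcodes with at least 10 C1qa UMIs per 10000.

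**Figure D2:**
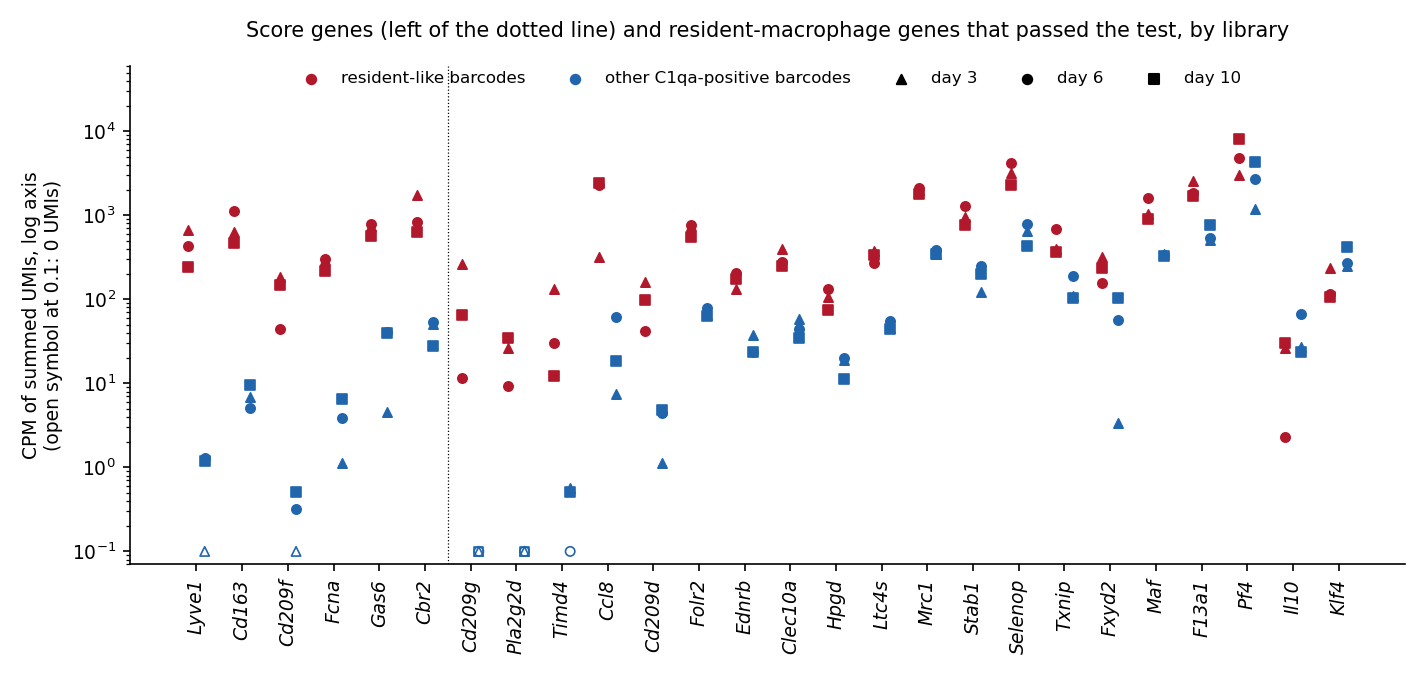
CPM (log axis) of the 6 score genes, left of the dotted line, and of the resident-list genes that passed the test in the resident-like barcodes (red) and the other C1qa-positive barcodes (blue), each symbol 1 library by day and open symbols 0 UMIs. Ccl8, Folr2 and Mrc1 show all 3 red symbols above all 3 blue ones, and Klf4 and Il10 at the right do not.

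Genes with the largest differences by rank included several outside that list. C4b, complement component C4, had 186, 434 and 447 CPM in resident-like barcodes of day 3, day 6 and day 10, against 14.2, 10.2 and 18.7 CPM in the other C1qa-positive barcodes (log2 fold change 4.51 ± 0.27 (SE), adjusted p = 7.31e-60, edgeR). C1qa was itself used to define the others. Of 12 tested complement genes 4 were higher, among them C4b, C1qa (1.04 ± 0.26) and C1qc (1.21 ± 0.25), while C3 (-1.50 ± 0.29) and the integrin subunit Itgax (-4.85 ± 0.63) were lower. C1qb did not pass (0.48 ± 0.26). The median over the complement list was 0.36, and -0.12 without the day 10 library. C3 did not pass without that library. Fcgrt, the neonatal Fc receptor that recycles IgG and albumin, had 1088, 739 and 538 CPM in resident-like barcodes against 37.5, 64.2 and 57.6 CPM in the others and was found in 94 barcodes (log2 fold change 3.47 ± 0.25 (SE), adjusted p = 1.40e-39, edgeR). Slco2b1, an organic anion transporter, had 133, 130.1 and 106 CPM in resident-like barcodes against 3.41, 10.5 and 9.71 CPM in the others, and Npl, a sialic acid lyase, had 79.6, 142 and 183 CPM in resident-like barcodes against 6.81, 11.8 and 9.02 CPM in the others. Sult1a1, Rcn3, Cmah, Chp2, Kitl, Plekhg5 and Kank2 completed the largest differences, with log2 fold changes of 3.63 to 6.31.

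Chemokines were split in direction. Of 15 tested, 5 were higher and 7 lower, with a median of -0.71. Beside Ccl8 and Pf4, Ccl6 (5359, 2557 and 1956 CPM in resident-like barcodes against 2518, 1047 and 508 CPM in the others), Ccl12 (106, 214 and 91.4 CPM in resident-like barcodes against 257, 44.7 and 18.4 CPM in the others) and Ccl24 (53.1, 41.8 and 114 CPM in resident-like barcodes against 144, 33.2 and 11.1 CPM in the others) were higher, but the day 3 values of Ccl12 and Ccl24 ran the other way. At day 3 Ccl12 rested on 4 UMIs in the resident-like barcodes and Ccl24 lay below the 79.6 CPM of 3 UMIs, so their direction on that day is uncertain. Without the day 10 library 1 of 16 chemokines was higher and 7 lower, and Ccl12 passed neither without that library nor without day 6. The neutrophil attractants Cxcl1, Cxcl2 and Cxcl3 were all lower. Cxcl2 had 0, 699 and 827 CPM in resident-like barcodes of day 3, day 6 and day 10, against 8525, 7506 and 11403 CPM in the other C1qa-positive barcodes (log2 fold change -4.39 ± 0.30 (SE), adjusted p = 2.95e-44, edgeR). The monocyte attractant Ccl2 was lower as well (1884, 199.7 and 173 CPM in resident-like barcodes against 1655, 415 and 434 CPM in the others), with the classes overlapping at day 3.

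Among 16 scavenger and endocytic genes, 8 were higher and 1 lower, with a median of 0.74. Besides Timd4, Mrc1 and Stab1 these were Colec12 (3.15 ± 0.43), a collectin scavenger receptor, and the sorting nexin gene Snx2 (1.10 ± 0.24). The rest were the clathrin-pathway genes Cltc (1.30 ± 0.25), Ap2a2 (1.54 ± 0.24) and Dab2 (0.86 ± 0.25). Cltc, the clathrin heavy chain, had 1035, 869 and 674 CPM in resident-like barcodes against 270.2, 295 and 264 CPM in the others. Clec4n, dectin-2, was lower (-1.28 ± 0.27). Of 20 lysosomal genes 2 were higher, among them Hexa, and 2 were lower (Ctsk and Ctsl), with a median of 0.25. Hexa did not pass without the day 6 or the day 10 library, and Ctsl did not with any 1 library left out. Ctsk, cathepsin K, had 0, 23.2 and 0 CPM in resident-like barcodes against 32.9, 103 and 136 CPM in the others. Of 16 efferocytosis genes, Pros1, the second bridging ligand of the TAM receptors beside Gas6, was the single one called higher (186, 118 and 69.1 CPM in resident-like barcodes against 18.7, 23.0 and 17.5 CPM in the others). Itgav, Anxa1 and Cd300lf were lower, with 1 of 16 lower without the day 6 library and 2 without day 3 or day 10, and the receptors Mertk (0.47 ± 0.24) and Axl (-0.84 ± 0.33) did not pass.

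Macrophage core genes were higher in 6 of 17 cases and lower in 0, with a median of 0.47. Cd81 led them (424, 316 and 319 CPM in resident-like barcodes against 19.3, 66.1 and 91.1 CPM in the others), followed by C1qc, Adgre1, C1qa, Apoe and Csf1r. With day 3 left out 4 were higher, and 2 with day 10 left out. With the others limited to barcodes with at least 10 C1qa UMIs per 10000, 3 of 17 were higher and the median was 0.11. Of 15 iron and haem genes 3 were higher, Trf, Slc40a1 and Blvrb, and 3 lower, Hp, Fth1 and Alas1, with a median of -0.08. With any 1 library left out, 1 was higher and 1 or 2 were lower. Trf, transferrin, had 796, 606 and 930.4 CPM in resident-like barcodes against 186, 147 and 352 CPM in the others. Fth1, the ferritin heavy chain, had 5359, 11888 and 16105 CPM in resident-like barcodes against 11160.1, 18774 and 30152 CPM in the others. Growth factor genes included 3 higher, Pdgfc (2.21 ± 0.34), the co-receptor Nrp1 (2.05 ± 0.24) and Igf1 (1.55 ± 0.24), and 7 lower of 16, with a median of -0.53. Without the day 6 library 3 of 14 were higher and 3 lower, and the median was 0.01. Igf1 had 292, 223 and 136 CPM in resident-like barcodes against 20.4, 100 and 36.6 CPM in the others. Vegfa was lower (0, 11.6 and 181 CPM in resident-like barcodes against 354, 497 and 670.2 CPM in the others), as were Hbegf, Areg, Osm, Pdgfb, Gdf15 and Pdgfa. Of 26 transcription factors, Mef2c (1.61 ± 0.23), Maf (1.49 ± 0.26) and Tcf4 (0.79 ± 0.24) were higher and 12 lower. Maf had 1035, 1589 and 899.9 CPM in resident-like barcodes against 349, 337 and 324 CPM in the others, with no overlap.

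Genes of inflammation and of the immediate early response were lower in the resident-like barcodes. In the inflammatory list 12 of 13 tested genes were lower and 0 higher, with a median of -3.59, and with 1 library left out 11 of 13 to 14 of 15 were lower. Il1a had 0, 2.32 and 2.03 CPM in resident-like barcodes of day 3, day 6 and day 10, against 46.5, 72.5 and 74.6 CPM in the other C1qa-positive barcodes (log2 fold change -5.26 ± 0.57 (SE), adjusted p = 3.61e-18, edgeR). Il1b had 2414, 25.5 and 99.5 CPM in resident-like barcodes against 3773, 1621 and 2277 CPM in the others, and the 91 UMIs of the third day 3 barcode made up its whole day 3 value in the resident-like set. Tnf (-3.96 ± 0.34), Ptgs2 (-3.82 ± 0.32) and Nlrp3 (-3.62 ± 0.34) were lower as well. Inhba, a subunit of activin, had 0 UMIs in the resident-like barcodes and 466 in the others, at least 13.9-fold lower with the resident-like sum set at 3 UMIs. Flrt3 had 0 UMIs in resident-like barcodes against 728 in the others, at least 21.7-fold lower. All 21 tested genes of the immediate early and heat shock list were lower, with a median of -2.21. Without the day 6 library 17 were lower. The largest differences were at Egr2 (-3.97 ± 0.46) and Fosb (-3.11 ± 0.31). These genes also respond to tissue digestion. The mitochondrial share was higher in the resident-like barcodes, as given above, and its part in this difference was not tested.

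Monocyte genes were lower in 12 of 13 cases, with a median of -1.23, in 7 of 14 without the day 6 library and in 8 of 14 without day 10. With the others limited to barcodes with at least 10 C1qa UMIs per 10000, 9 of 13 were lower (median -0.88). Ly6c2 had 186, 2.32 and 2.03 CPM in resident-like barcodes against 698, 38.7 and 15.2 CPM in the others, and Ccr2 was lower too but still present in 33 of 108 barcodes. Of 20 matrix and protease genes 14 were lower (median -1.31), or 9 without the day 6 library, and Timp2, a metalloproteinase inhibitor, was higher (637, 1026 and 1068 CPM in resident-like barcodes against 99.9, 362 and 438 CPM in the others). Mmp12, macrophage elastase, had 0, 58.1 and 8.13 CPM in resident-like barcodes of day 3, day 6 and day 10, against 199.8, 1488 and 910.1 CPM in the other C1qa-positive barcodes (log2 fold change -5.55 ± 0.38 (SE), adjusted p = 8.76e-45, edgeR), and 82.8% of its 29 resident-like UMIs came from 1 barcode. Hypoxia and glycolysis genes were lower in 14 of 17 cases (median -1.18), among them Vegfa, Slc2a1, Ndrg1 and Hk2. Without the day 6 library 7 were lower, and DESeq2 called 9. Of 17 genes of lipid-laden macrophages 8 were lower (median -0.92), including Spp1 (478, 741 and 678 CPM in resident-like barcodes against 1653, 3939 and 2600.1 CPM in the others), Cd9 and Gpnmb, and Trem2 did not pass (-0.05 ± 0.27). Under the same C1qa limit on the others, 7 of the 17 were lower (median -0.49).

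Antigen presentation and interferon genes were less stable. All 8 tested MHC class II genes were lower, with a median of -1.13. H2-Ab1 had 2096, 741 and 843 CPM in resident-like barcodes against 2003, 2458 and 1522 CPM in the others, so the classes overlapped at day 3. With the others limited to the 676 barcodes with at least 10 C1qa UMIs per 10000, 1 of 7 was lower. Without the day 6 library 0 of 8 were, without day 10 it was 3 of 7, and DESeq2 called 3 of 8. With Cbr2 left out of the score 0 of 7 were lower. H2-Aa itself had UMIs in 27.8% of resident-like barcodes thinned to 2000 UMIs, against 28.5% of the other C1qa-positive and 44.7% of the C1qa-negative barcodes. Of 20 interferon-induced genes 8 were lower (median -0.39), with 2 of 19 under the stricter C1qa limit, 4 of 20 without the day 3 library and 1 without day 6. Of 12 cell cycle genes Cenpf, Cdk1 and Mki67 were called higher and Pcna lower, with 0 of either without the day 10 library, and 1 barcode held 59.4% of the Cenpf UMIs and 41.7% of the Cdk1 UMIs.

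**Figure D3:**
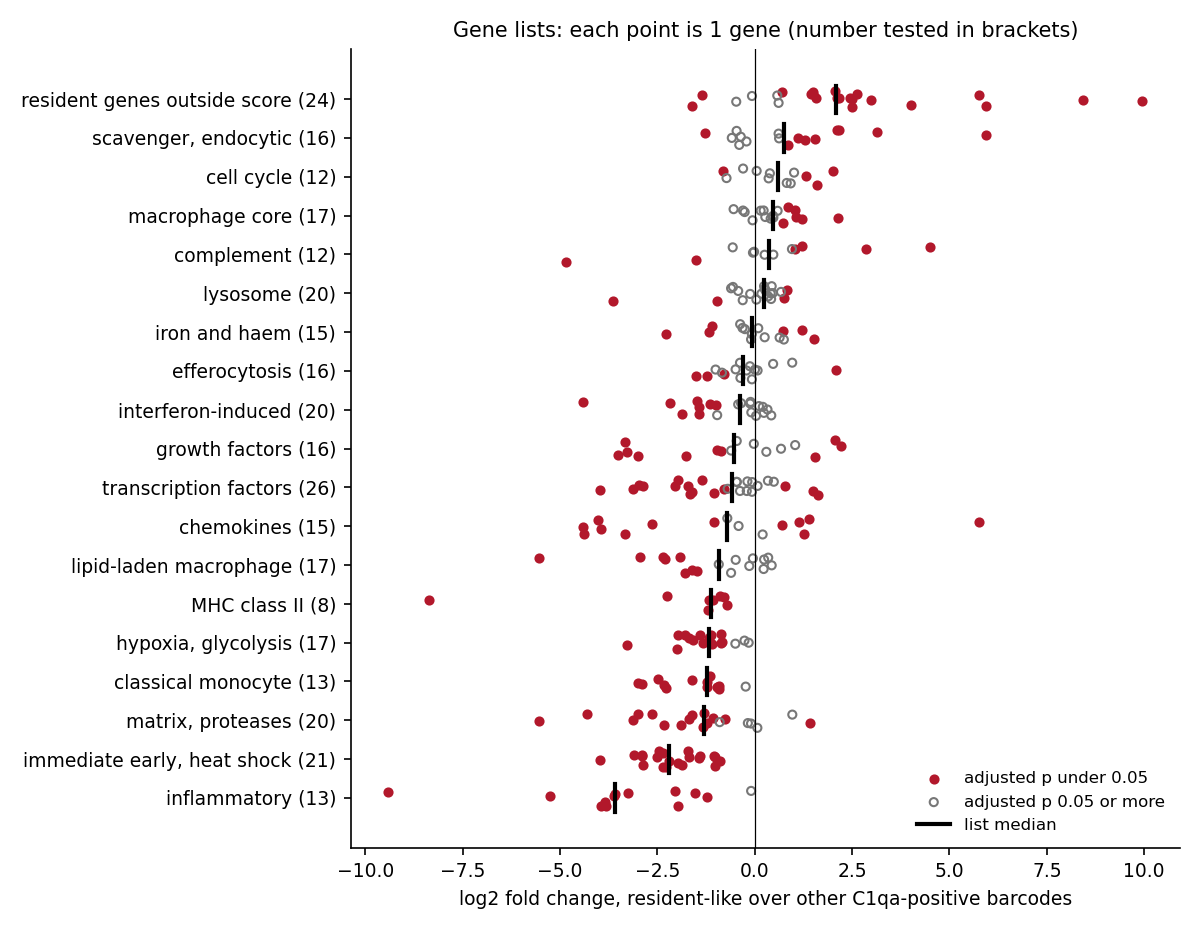
Log2 fold change of each tested list gene, resident-like over other C1qa-positive barcodes, with filled points past an adjusted p of 0.05 (edgeR), open points not, and black bars at list medians; genes with 0 UMIs in 1 class are drawn at fitted values, which are no bounds. The resident list sits highest with a median of 2.08, and the inflammatory (-3.59) and immediate early (-2.21) lists sit lowest.

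The 108 barcodes varied among themselves. UMIs of 2 score genes were found in 33 barcodes, of 3 in 25, of 4 in 20, of 5 in 21 and of all 6 in 9. The most common combination was Gas6 with Cbr2 alone, in 23 barcodes, and the next was Lyve1, Cd163, Fcna, Gas6 and Cbr2, in 17. Genes outside the score differed along this range in value, with no test, since barcodes are not replicates. Ccl8 was at 846, 1184 and 3203 CPM with 2, 3 and 4 to 6 score genes at day 6, and at 1018, 701 and 3857 CPM at day 10. Folr2 was at 240, 553 and 1024 CPM at day 6 and 396, 564 and 624 CPM at day 10. Ccr2 ran the other way, at 682, 217 and 32.0 CPM at day 6 and 501, 119.7 and 111 CPM at day 10. Barcodes with 2 score genes were also shallower, with median UMIs of 8817 at day 6 and 4392 at day 10, against 13486 and 8005 with 4 to 6, and the part of depth in this ordering was not tested.

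**Figure D4:**
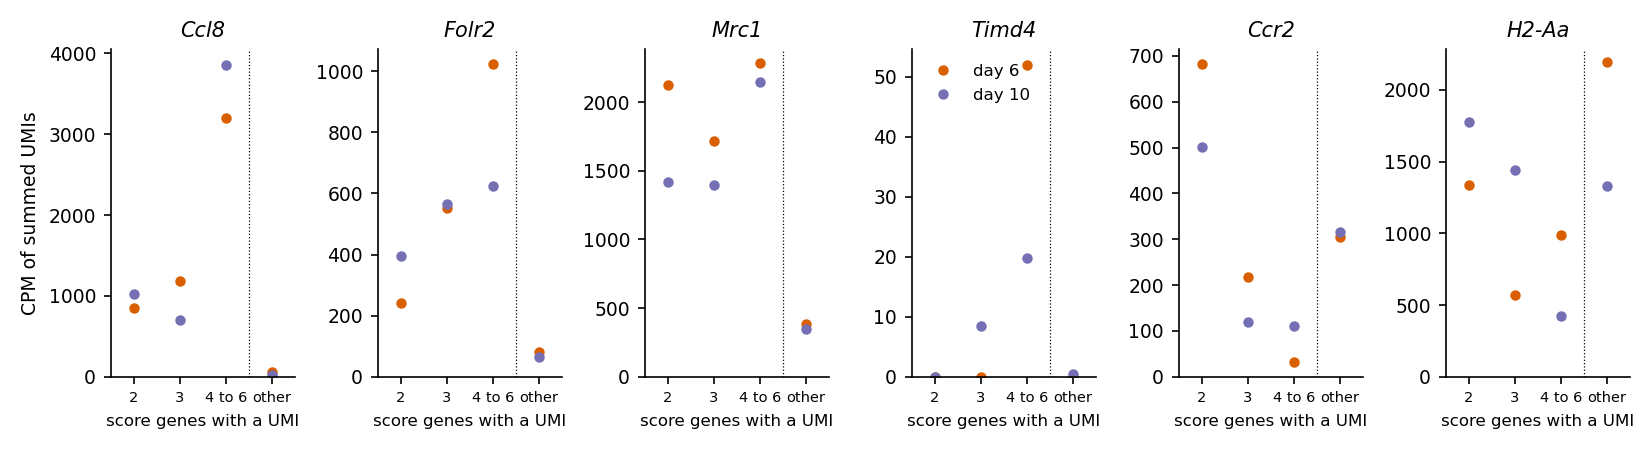
CPM of 6 genes in resident-like barcodes with UMIs of 2, 3 and 4 to 6 score genes, and in the other C1qa-positive barcodes (right of the dotted line), at day 6 and day 10. Ccl8 is highest with 4 to 6 score genes on both days and Ccr2 is highest with 2.

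Barcodes with a Lyve1 UMI (12 at day 6 and 27 at day 10) differed in the same way from the 23 and 42 without one. Ccl8 was at 4220.2 CPM with and 1057 CPM without a Lyve1 UMI at day 6, and 4241 and 1229 CPM at day 10. Folr2 was at 1258 CPM with and 454 CPM without a Lyve1 UMI at day 6, and 778 and 411 CPM at day 10, and Timd4 was at 71.2 CPM with and 3.82 CPM without a Lyve1 UMI at day 6, and 31.5 and 0 CPM at day 10. Ccr2 was at 0 CPM with and 320.5 CPM without a Lyve1 UMI at day 6, and 99.8 and 281 CPM at day 10. H2-Aa was at 594 CPM with and 1190.3 CPM without a Lyve1 UMI at day 6, and 788 and 1146 CPM at day 10. On these days Timd4 and Ccl8 were thus higher with Lyve1, and Ccr2 and H2-Aa lower. At day 3, where 4 barcodes are too few to compare, Ccl8 was at 196 CPM with and 463 CPM without a Lyve1 UMI and H2-Aa at 3627 and 1446 CPM, which is the other order. These are sums over barcodes of 1 library a day, so no test applies. After thinning each barcode to 2000 UMIs, Mrc1 was found in 92.6% of resident-like barcodes, against 39.6% of the other C1qa-positive barcodes, Folr2 in 56.5% of resident-like and 11.3% of other C1qa-positive barcodes, and Ccl8 in 45.4% of resident-like and 2.90% of other C1qa-positive barcodes. Ccr2 was found in 21.3% of resident-like and 34.9% of other C1qa-positive barcodes. In the C1qa-negative barcodes Mrc1 was found in 21.6%, Folr2 in 2.62%, Ccl8 in 0.524% and Ccr2 in 58.7%. That class carries Ccr2 and Mrc1 itself, so it gives no background for these genes.

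Between day 10 and day 6, the days with 69 and 35 resident-like barcodes, a gene counted as higher or lower at a ratio of 2-fold or more with its exact binomial 95% interval past 1.5. Of 5659 genes with at least 20 UMIs, 74 were higher at day 10 (1.31%) and 43 lower (0.76%). In the other C1qa-positive barcodes 111 of 10172 were higher (1.09%) and 293 lower (2.88%) by the same rule, at larger sums. Of 23 resident genes measured, Cd209b and Cd209g were higher at day 10 and 0 were lower, with a median log2 ratio of -0.14. Cd209b came from 2 barcodes. Ccl8, Folr2 and Mrc1 were within 1.5-fold, as the CPM above show.

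Hypoxia and glycolysis genes were higher at day 10 in 9 of 16 cases within the resident-like barcodes, with a median log2 ratio of 1.25. In the other C1qa-positive barcodes 5 of 18 were higher, with a median of 0.84, and the ratio was above 1 for all 16 and all 18 genes measured. Bnip3, a mitophagy gene induced by low oxygen, had 457 CPM at day 10, against 81.3 CPM at day 6 in resident-like barcodes, with a ratio of 5.62 (95% interval 3.93 to 8.28). In the others it had 538 CPM at day 10, against 161 CPM at day 6, with a ratio of 3.35 (95% interval 3.05 to 3.68). Vegfa had 181 CPM at day 10, against 11.6 CPM at day 6, with a ratio of 15.6 (95% interval 6.43 to 49.1), and 33.7% of its 89 day 10 UMIs came from 1 barcode. In the others the Vegfa ratio was 1.35 (95% interval 1.27 to 1.43). Slc2a1, a glucose transporter, had 106 CPM at day 10, against 11.6 CPM at day 6, with a ratio of 9.10 (95% interval 3.66 to 29.2). In the others the Slc2a1 ratio was 2.54 (95% interval 2.25 to 2.86). With each gene's top barcode left out on both days, 10 of the 16 were higher in the resident-like barcodes.

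Immediate early genes were also higher at day 10, in 9 of 20 cases, and Hspa1b was lower, with a median of 1.04. In the others 0 of 22 were higher and Hspa1a and Hspa1b were lower, with a median of -0.19. Jun had 707 CPM at day 10, against 193 CPM at day 6 in resident-like barcodes, with a ratio of 3.67 (95% interval 2.88 to 4.72), and the ratio in the others was 1.60 (95% interval 1.53 to 1.67). Socs3 had 150.3 CPM at day 10, against 25.5 CPM at day 6, with a ratio of 5.88 (95% interval 3.11 to 12.3). Levels of the 20 genes were below those of the others on both days. Fosb had 79.2 and 13.9 CPM in resident-like barcodes at day 10 and day 6, against 334 and 330.03 CPM in the others. Each day is 1 library, so library and day cannot be told apart.

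Of the interferon-induced genes, 10 had enough UMIs in the resident-like sums, and 1 was lower at day 10 (median -0.81). In the others, whose sums were larger (5872839 and 3130029 UMIs, against 492282 and 430592), 19 of 20 were lower (median -1.96). Whether the classes differ was not tested. Ifi204, the 1 called, had 104 CPM at day 10, against 276 CPM at day 6 in resident-like barcodes, with a ratio of 0.375 (95% interval 0.265 to 0.525), against 0.499 (95% interval 0.442 to 0.564) in the others. Irf7 had 99.5 CPM at day 10, against 109 CPM at day 6 in resident-like barcodes, and 31.0 CPM at day 10, against 119 CPM at day 6, in the others.

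The single genes with the largest day 10 ratio were uneven across barcodes. Retnla, a secreted product of alternatively activated macrophages, had 766 CPM at day 10, against 13.9 CPM at day 6, with a ratio of 55.0 (25.0 to 151). Its 377 day 10 UMIs came from 9 of 69 barcodes, 40.6% of them from 1. The ratio in the others was 2.37. Gdf15, a stress-induced cytokine, had 158 CPM at day 10 against 2.32 CPM at day 6, a ratio of 22.7 (7.50 to 113) with the 1 UMI of day 6 set at 3. Its day 10 UMIs came from 8 barcodes. In the others the ratio was 0.453. Ptgs2, the inducible prostaglandin synthase, had 148 CPM at day 10 against 13.9 CPM at day 6, a ratio of 10.6 (4.66 to 29.9), and 0.865 in the others. When the barcodes were chosen on UMIs thinned to one depth, the Ptgs2 ratio was 0.674. Lower at day 10 were Vcam1, an adhesion molecule, and the glucocorticoid-induced genes Tsc22d3 and Fkbp5. Vcam1 had 6.09 CPM at day 10 against 128 CPM at day 6, a ratio of 0.0477 (0.00955 to 0.147), and 0.145 (0.0860 to 0.234) in the others. Its day 6 UMIs came from 8 resident-like barcodes. Tsc22d3 had 65.0 CPM at day 10 against 439 CPM at day 6, a ratio of 0.148 (0.0985 to 0.216), and 0.209 in the others. Fkbp5 had 24.4 CPM at day 10 against 149 CPM at day 6, a ratio of 0.164 (0.0806 to 0.307), and 0.190 in the others. Cx3cr1, the fractalkine receptor, had 38.6 CPM at day 10 against 169.5 CPM at day 6, a ratio of 0.228 (0.130 to 0.381), with 63.2% of its day 10 UMIs in 1 barcode.

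**Figure D5:**
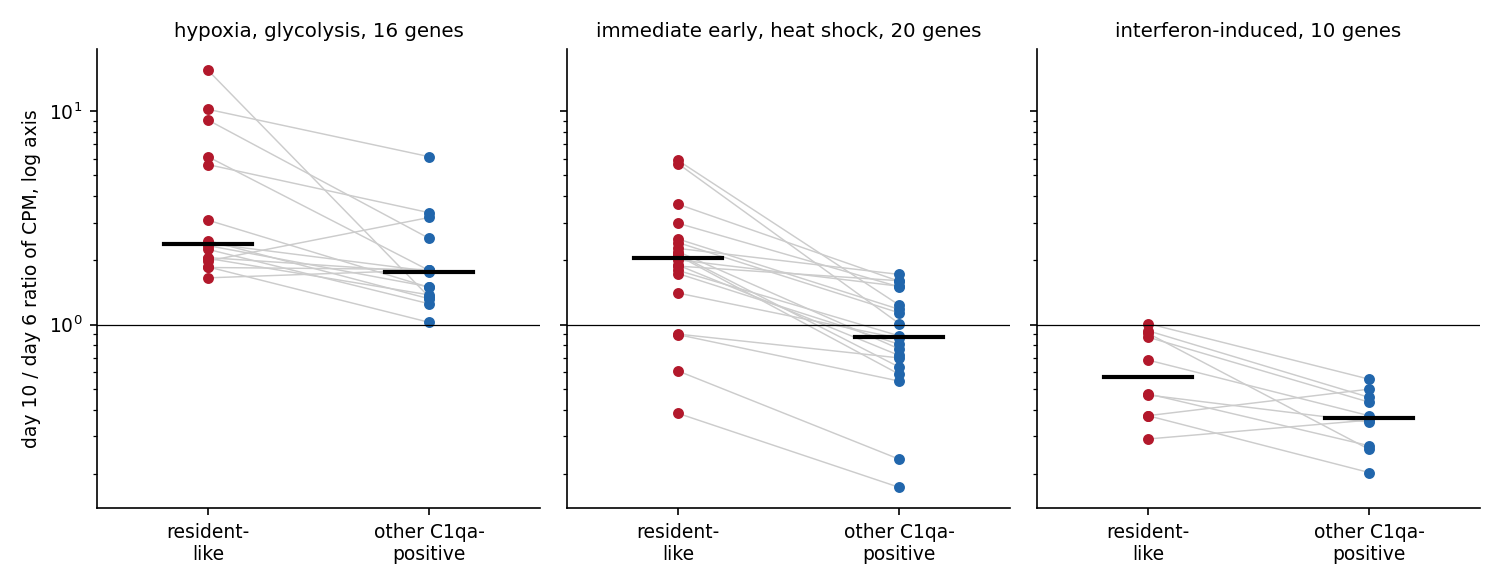
Ratio of CPM at day 10 over day 6 (log axis) for each measured gene of 3 lists in resident-like (red) and other C1qa-positive (blue) barcodes, grey lines joining the same gene and black bars the medians over genes measured in both. Most hypoxia and immediate early genes lie above 1 in the resident-like barcodes, and 9 of 10 interferon genes lie below 1 there, with all of them below 1 in the others.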

How the data were processed

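The authors deposited filtered UMI counts per gene and barcode, 1 matrix for each of the 3 libraries with 31053 gene identifiers. Per the submitters' processing notes they were made with Cell Ranger 3.0.2 on mm10. UMIs make each count 1 molecule. Gene coordinates are those of GENCODE vM21 on the same build.

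Barcodes with at least 200 genes, at least 2000 UMIs and under 10% mitochondrial UMIs were pooled, and the top 4% by the 6-gene score were taken. The score, the genes in it and the gene lists were chosen with earlier results of these data known. Scrublet, run in scanpy 1.11.5 within each library, gave doublet calls, which were kept.

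UMIs were summed by library and class and tested with edgeR 4.0.16 (TMM factors, filterByExpr, quasi-likelihood F test, library as a block) in R 4.3.3, with Benjamini-Hochberg adjusted p under 0.05 as the threshold. The 6 score genes were left out of the counts of calls. The script was tested on simulated data. The 2 classes of a library share its mice and its run, which is the reason for the block. The libraries come from separate days and separate pools of mice, so the residual spread includes any change of the difference between days, and for day comparisons there is no replicate.

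Day ratios used CPM with exact conditional binomial 95% intervals (scipy 1.17.1), for genes with at least 20 UMIs over both sums, and a sum under 3 UMIs was set at 3.

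Genes were named by a rule: the 15 largest and 10 smallest log2 fold changes among genes that passed the test, had the same direction in 3 libraries and reached 50 CPM in either class; the 2 largest and 2 smallest of each list; every gene of the resident list; and, for day 10 against day 6, the 5 largest and 5 smallest ratios at 100 CPM or more. Other genes were chosen after their values were seen, among them Bnip3, Jun, Socs3, Fosb, Irf7 and Ifi204. The alternatives were other score limits, score genes, filters, normalizations and tools (DESeq2 1.42.0), and leaving out each library. Some items are not reported here.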

Additional observations from a re-analysis of the deposited data

Results flagged for a closer look

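Barcodes with 10% or more mitochondrial UMIs, which the filters leave out, also reached the score of the resident-like barcodes. They did so in 2 of 379 cases at day 3, in 47 of 437 at day 6, or 10.8% (exact 95% interval 8.01 to 14.04%), and in 27 of 411 at day 10, or 6.57% (4.37 to 9.41%). A count of 0 would have allowed 0.686 and 0.73% at day 6 and day 10. Those of day 6 and day 10 had median depths of 3862 and 2752 UMIs and median mitochondrial shares of 24.6 and 16.8%. Their sums held Folr2 at 320 and 521 CPM, Mrc1 at 1225 and 1698 CPM, and Ccl8 at 1351 and 1630 CPM, so genes outside the score were high in them too.

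For 3 genes the day 10 over day 6 ratio ran in opposite directions in the 2 classes, and the difference was not tested. Gdf15 had a ratio of 22.7 in resident-like barcodes and 0.453 in the other C1qa-positive barcodes, and 12.8 in resident-like barcodes without the top barcode of each day. Ptgs2 had a ratio of 10.6, against 0.865 in the others, but 0.674 when the resident-like barcodes were chosen on thinned UMIs, which is the direction of the others. Cx3cr1 had a ratio of 0.228, against 1.16 in the others, and 0.139 without the top barcodes. Between 4 and 10 resident-like barcodes held the day 10 UMIs of each of these genes. Outside this ranking the directions could also differ, as for Ccl24, which was called higher at day 10 in the resident-like barcodes and lower in the others.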

How the results depend on the processing

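The shares of resident-like barcodes moved with the limit on the score, while the day 3 share was lowest under each limit tried. Of filtered barcodes, the top 8% gave 2.05, 12.9 and 9.98% at day 3, day 6 and day 10, the top 2% gave 3.27 and 2.67% at day 6 and day 10, and asking for UMIs of at least 3 score genes (a choice made after seeing the data) gave 3.62% at day 10. Of C1qa-positive barcodes, the top 8% gave 7.51, 21.0 and 16.9%, the top 2% gave 6.21 and 4.78% at day 6 and day 10, C1qa at 10 UMIs per 10000 gave 16.7 and 13.8%, and at least 3 score genes gave 6.47% at day 10. Of the barcodes chosen on thinned UMIs 70.4% were also in the 108, and 80.6 and 79.6% without Cbr2 or Gas6 in the score.

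The 425 genes higher in resident-like barcodes became 175 with DESeq2 and 116 to 355 with 1 library left out, and the 651 lower genes became 344 and 253 to 540. Without the replicate block of libraries 108 were higher and 219 lower. No paired analysis was possible between days because they share no replicate beyond 1 library each. The 43 genes lower at day 10 against day 6 became 76 with the top 8% and 24 with a minimum of 50 UMIs.

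Directions turned for few genes, and the cause was not tested. Saa3 had a log2 fold change of 0.55 with the top 8%. Il10 had 0.69 with the top 8%, 0.58 on thinned UMIs, and 0.0849 to -3.97 with 1 library left out. Cd209a had 3.56 with C1qa at 10 UMIs per 10000. Ratios against the 4 day 3 barcodes turned for Il1b on thinned UMIs (4.60 for day 10 and 1.62 for day 6), for Cxcl2 without Gas6 in the score (0.479 for day 6), and for Ccl7 at day 10 (3.17 on thinned UMIs, 1.12 for barcodes with C1qa and 1.20 without each gene's top barcode). The day 10 over day 6 ratio of Ptgs2 was 0.674 on thinned UMIs. Of the log2 fold changes of named genes under all alternatives, 1733 kept direction and side of the threshold, 150 lost the call, 8 gained it and 5 turned. Depth limits the sparse genes most, since the 4 day 3 barcodes held 37693 UMIs, against 430592 at day 6.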

Other observations

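Some genes of the uptake of dying cells were lower in the resident-like barcodes of day 10 than in those of day 6, by the counting rule used for the day ratios, with no replicate check. Of 16 efferocytosis genes 3 were lower, Axl, Mertk and Ucp2, against 0.76% of all genes, and 0 were higher, with a median log2 ratio of -0.29. Without each gene's top barcode 3 were lower as well. In the other C1qa-positive barcodes 3 of 16 were lower too, Axl, Mfge8 and Abcg1, against 2.88% of all genes there. The median log2 ratio in these others was -0.47, so a fall of this list was not particular to the resident-like barcodes. Axl, a TAM receptor, had 8.13 CPM at day 10, against 62.7 CPM at day 6, with a ratio of 0.13 (95% interval 0.0329 to 0.372), and 0.422 in the other C1qa-positive barcodes. Mertk, its relative, had 67.0 CPM at day 10, against 176.5 CPM at day 6, with a ratio of 0.38 (0.244 to 0.579), and 0.597 in the others, where it did not reach 2-fold. In the list of lipid-laden macrophages 4 of 16 genes were lower at day 10, Gpnmb, Lpl, Fabp4 and Mmp12, and 3 of 17 in the others. Without each gene's top barcode 1 of the 16 was lower, Gpnmb, and the median log2 ratio was -0.08, against -0.28 with all barcodes. Lpl, lipoprotein lipase, had 87.3 CPM at day 10, against 218 CPM at day 6, with a ratio of 0.4 (0.272 to 0.580), and 0.148 in the others, but without its top barcodes the ratio was 0.777 (0.467 to 1.29) and not called. In the inflammatory list Arg1, Il1b, Ptgs2 and Saa3 were higher at day 10 and Il1rn lower, of 10 measured. Over all genes 1.31% were higher and 0.76% lower. Without the top barcodes Il1rn had a ratio of 0.875 (0.163 to 4.70) and was not called, and Ptgs2 had a ratio of 0.674 when the barcodes were chosen on thinned UMIs. In the other C1qa-positive barcodes Nos2, Saa3 and Arg1 were higher and Il6 lower, of 16 measured. Arg1, arginase, had 1505 CPM at day 10, against 664 CPM at day 6, with UMIs in 52 of 69 barcodes and a ratio of 2.27 (1.97 to 2.61), against 2.80 (2.71 to 2.89) in the others. Saa3 had 264 CPM at day 10, against 46.4 CPM at day 6, with 36.9% of its day 10 UMIs in 1 barcode. In the others Saa3 had 439 CPM at day 10, against 131 CPM at day 6. These genes were chosen after their values were seen.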
